A study of Homo sapiens with 18 samples.

Results

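The mRNA of 9 G protein-coupled receptors, HTR2B, GRPR, PTH1R, LPAR1, LPAR3, ADGRF4, GPRC5A, OXTR and EDNRA, was followed in human endometrial stromal cells with raised progesterone receptor. They are 9 of the 78724 genes in the count table, found by their symbols, and all 9 were among the 15558 genes that passed the filter on low counts. The set joins receptors whose mRNA differed with cell line or hormone to reference receptors of the uterus, and prostaglandin receptors were left out of it. Because measured values chose the members, their levels and fold changes are a description and carry no test.

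RNA was sequenced from THESC, an immortalised line of human endometrial stromal cells, after CRISPR engineering with guide RNAs, with 3 libraries in each of 6 groups. NT cells are the control, with genotype label WT. U1U2 cells, labelled PGRA/B-equivalent, and promoter cells, labelled PGRB-dominant, are lines in which isoforms of the progesterone receptor gene PGR were activated at different ratios. Each line received medroxyprogesterone acetate (MPA), a synthetic progestin, at 1 uM or ethanol vehicle for 72 hours. Vehicle and MPA cells alike had first been moved to low serum and were then kept in medium with charcoal-stripped serum. Each genotype is 1 engineered line, so line and genotype cannot be told apart. The labels do not say whether replicates were separate cultures, and p-values then measure only the spread between these libraries, which may be technical. In a bulk culture, fewer cells of a type and less RNA per cell cannot be told apart.

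Library totals ran from 11932474 to 33418643 counts, and NT vehicle replicate 1 was the shallowest. Mitochondrial genes took 2.51 to 3.03% of counts in NT vehicle, 1.79 to 2.53% in U1U2 vehicle and 1.63 to 2.15% in promoter vehicle, so NT vehicle stood above promoter vehicle without overlap. Values below are in CPM, counts scaled to a common library total, on library sizes scaled by the trimmed mean of M-values. PGR itself stood at 120, 153 and 147 CPM in the 3 NT vehicle libraries, against 531 to 674 CPM in U1U2 vehicle and 395 to 475 CPM in promoter vehicle. Total PGR mRNA was thus raised in both activated lines, but gene counts do not separate the isoforms that the labels name. Under MPA it was lower in each line, at 76.2 to 95.1 CPM in NT cells. U1U2 MPA libraries held 226 to 291 CPM and promoter MPA libraries 264 to 303 CPM, which overlapped. All 12 stromal markers were present, whereas 3 of 10 epithelial, 1 of 7 endothelial and 1 of 7 leukocyte markers reached 1 CPM in any library. The epithelial ones were KRT19 at 7.31 to 31.6 CPM, MUC1 at 3.26 to 5.32 CPM and EPCAM at 0.135 to 1.43 CPM. The endothelial one was TIE1 at 0.0433 to 1.19 CPM and the leukocyte one PTPRC at 1.55 to 5.48 CPM. CLDN3, CLDN5, ERG and CD3E had no counts, and the rest of these lists stayed under 1 CPM. Of 6 smooth muscle markers 5 reached 1 CPM. LMOD1 held 61.0 to 150 CPM, ACTG2 32.8 to 144 CPM, CNN1 30.7 to 66.4 CPM and SMTN 12.5 to 29.8 CPM over the libraries. DES had at most 39 counts in a library and MYH11, a defining marker, at most 9.

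G protein-coupled receptors span the plasma membrane and pass the binding of a hormone, lipid or peptide to heterotrimeric G proteins inside the cell. Receptors coupled to Gq raise calcium through phospholipase C, and those coupled to Gs or Gi raise or lower cyclic AMP. In the uterus such receptors are known for their part in contraction, vessel tone, implantation and the cyclic AMP signal that supports decidualization.

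The 9 receptors fell into an abundant and a scarce group. Levels per kb of exon were ranked over 103 tested receptor genes, the 9 members and 94 others from a chosen list without prostaglandin receptors. OXTR was the highest at 167 CPM per kb averaged over the 18 libraries, and LPAR1 was second at 103 CPM per kb. Both kept those places in all 6 groups. HTR2B ranked 4 at 40.7 CPM per kb, with F2R, the thrombin receptor, between it and LPAR1 at 64.0 CPM per kb. GPRC5A, at 16.6 CPM per kb, and EDNRA, at 16.2 CPM per kb, ranked 13 and 14. LPAR3, GRPR, PTH1R and ADGRF4 stood between 1.06 and 1.49 CPM per kb and ranked from 39 to 49.

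**Figure D1:**
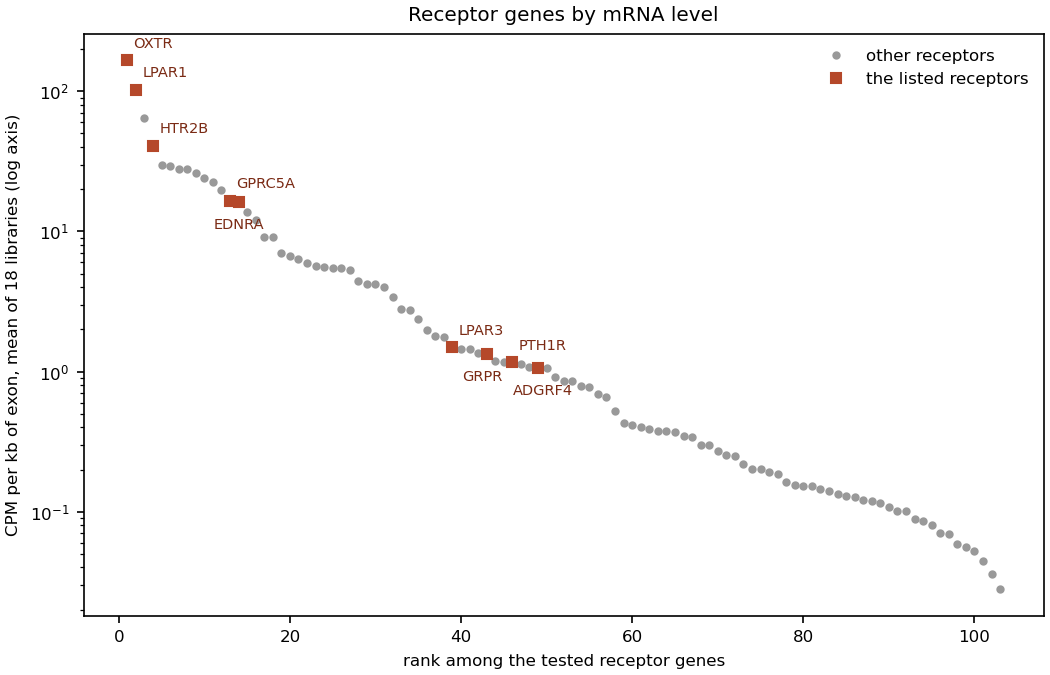
CPM per kb of exon, averaged over 18 libraries (log axis), against rank for the 103 tested receptor genes. Prostaglandin receptors are not included, and the 9 listed receptors are squares. OXTR and LPAR1 lead, HTR2B is at rank 4, and LPAR3, GRPR, PTH1R and ADGRF4 lie between ranks 39 and 49.

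OXTR (chr3:8750408-8769628, minus strand, GRCh38) encodes the oxytocin receptor, a Gq-coupled receptor that drives contraction in the myometrium. It measured 506, 535 and 591 CPM in NT vehicle and 676, 596 and 657 CPM in NT MPA. U1U2 libraries held 733, 635 and 691 CPM in vehicle and 951, 1083 and 881 CPM in MPA. Promoter libraries held 693, 787 and 738 CPM in vehicle and 873, 954 and 966 CPM in MPA. The MPA libraries lay above the vehicle libraries of the same line in all 3 lines, and NT vehicle lay below every other group. On the log2 scale the MPA difference was 0.24 ± 0.09 (SE) in NT, 0.50 ± 0.09 in U1U2 and 0.33 ± 0.09 in promoter cells. Against NT cells under MPA, OXTR was higher by 0.60 ± 0.10 in U1U2 and by 0.53 ± 0.09 in promoter cells. Summed smooth muscle markers also rose with MPA, from between 154 and 273 CPM in vehicle to between 241 and 365 CPM in MPA libraries. By line, these markers summed in vehicle to 181 to 273 CPM in NT, 174 to 196 CPM in U1U2 and 154 to 195 CPM in promoter cells. Under MPA they summed to 296 to 365 CPM in NT, 241 to 357 CPM in U1U2 and 284 to 329 CPM in promoter cells. Their part in the result was not tested.

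EDNRA (chr4:147480917-147544954, plus strand), the endothelin A receptor of vascular tone, was highest in the control line. It measured 80.9, 97.3 and 89.4 CPM in NT vehicle and 79.5, 70.7 and 62.3 CPM in NT MPA. In vehicle the U1U2 libraries held 67.6, 56.7 and 64.4 CPM and the promoter libraries 53.0, 63.2 and 63.6 CPM. NT vehicle stood above all other groups, and the other 5 overlapped with their neighbours in the order of means. EDNRA was lower than in NT vehicle by log2 -0.51 ± 0.10 in U1U2 and -0.58 ± 0.11 in promoter cells. Under MPA the NT libraries overlapped with both activated lines, at 64.7, 64.2 and 56.0 CPM in U1U2 and 67.2, 69.8 and 67.7 CPM in promoter cells. The MPA difference was -0.33 ± 0.10 in NT and 0.19 ± 0.10 in promoter cells, with no overlap between treated and untreated libraries in either line. Neither difference passed the adjusted p threshold of 0.05 in edgeR. AC093908.1 overlaps EDNRA on the same strand, so their reads cannot be told apart with certainty. It was also highest in NT vehicle, at 8.11 to 10.3 CPM, against 4.39 to 8.05 CPM over the other groups.

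LPAR1 and LPAR3 bind lysophosphatidic acid, and LPAR3 is known from mouse studies for its part in embryo implantation. LPAR1 (chr9:110873263-111038458, minus strand) measured 418, 398 and 412 CPM in NT vehicle and 535, 523 and 489 CPM in NT MPA. It measured 372, 319 and 316 CPM in U1U2 vehicle against 485, 489 and 460 CPM in U1U2 MPA. Promoter vehicle libraries held 329, 399 and 364 CPM and promoter MPA libraries 470, 457 and 472 CPM. Every MPA library stood above every vehicle library. The MPA differences were of similar size, at log2 0.33 ± 0.08 in NT, 0.51 ± 0.08 in U1U2 and 0.36 ± 0.08 in promoter cells.

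LPAR3 (chr1:84811602-84893213, minus strand) went the other way under MPA. It measured 6.53, 6.24 and 6.81 CPM in NT vehicle, 4.79, 4.72 and 4.95 CPM in U1U2 vehicle and 8.86, 7.97 and 10.1 CPM in promoter vehicle. Under MPA it measured 4.24, 4.68 and 3.37 CPM in NT, 3.70, 3.85 and 3.65 CPM in U1U2 and 3.54, 4.03 and 3.21 CPM in promoter cells. The 3 vehicle groups did not overlap, and the 3 MPA groups did. LPAR3 was lower under MPA by log2 -0.65 ± 0.14 in NT, -0.37 ± 0.14 in U1U2 and -1.32 ± 0.14 in promoter cells. In vehicle it was higher in promoter than in U1U2 cells by 0.90 ± 0.14.

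HTR2B (chr2:231108230-231125118, minus strand), the Gq-coupled serotonin receptor 2B, overlapped between the lines in vehicle and separated them under MPA. It measured 112, 129 and 117 CPM in NT vehicle, 126, 152 and 158 CPM in U1U2 vehicle and 122, 132 and 105 CPM in promoter vehicle. Under MPA it measured 75.7, 76.1 and 94.3 CPM in NT, 57.3, 49.7 and 45.3 CPM in U1U2 and 31.5, 31.4 and 34.5 CPM in promoter cells. The MPA groups formed 3 steps without overlap, highest in NT and lowest in promoter cells. The step from U1U2 to promoter cells, log2 -0.65 ± 0.12, passed the threshold in 4 of 11 alternative runs. MPA was associated with a log2 difference of -0.54 ± 0.12 in NT, -1.52 ± 0.12 in U1U2 and -1.88 ± 0.12 in promoter cells. The MPA difference was larger than in NT cells by -0.98 ± 0.16 in U1U2 and -1.34 ± 0.17 in promoter cells. Its rank among receptors per kb moved from 4 in vehicle to 9 in U1U2 MPA and 12 in promoter MPA. HTR2B lies inside PSMD1 on the opposite strand. PSMD1 held 280 to 380 CPM over all libraries and 313 to 338 CPM in promoter MPA, where HTR2B was lowest. Since the strand setting of the counting is not given, reads of HTR2B and PSMD1 cannot be told apart with certainty.

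GPRC5A (chr12:12890782-12917937, plus strand) encodes an orphan receptor of class C that was first known as a retinoic acid-induced gene. It measured 192, 155 and 149 CPM in NT vehicle, 222, 276 and 236 CPM in U1U2 vehicle and 185, 181 and 162 CPM in promoter vehicle. Under MPA it measured 90.8, 111 and 105 CPM in NT, 110, 89.5 and 107 CPM in U1U2 and 54.0, 47.7 and 46.8 CPM in promoter cells. U1U2 vehicle was the highest group and promoter MPA the lowest, and neither overlapped with its neighbour in the order. The MPA difference was log2 -0.69 ± 0.12 in NT, -1.26 ± 0.12 in U1U2 and -1.83 ± 0.12 in promoter cells, and the promoter response exceeded the NT response by -1.13 ± 0.17. The 10 epithelial markers summed to between 20.4 and 36.8 CPM in vehicle and between 11.9 and 25.6 CPM in MPA libraries. Nearly all of it was KRT19 and MUC1. Leukocyte markers summed to between 3.62 and 5.62 CPM in vehicle and between 1.64 and 2.41 CPM in MPA, nearly all PTPRC. The part of either list in the result was not tested.

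GRPR (chrX:16123556-16153021, plus strand) is the Gq-coupled receptor of gastrin-releasing peptide. It measured 1.92, 2.72 and 2.49 CPM in NT vehicle, 3.78, 3.78 and 3.04 CPM in U1U2 vehicle and 5.22, 5.71 and 5.40 CPM in promoter vehicle. Under MPA it measured 1.43, 1.11 and 1.24 CPM in NT, 1.27, 1.45 and 1.60 CPM in U1U2 and 1.54, 1.64 and 1.40 CPM in promoter cells. The vehicle groups stood in 3 steps without overlap, lowest in NT and highest in promoter cells, and the MPA groups overlapped. Promoter cells exceeded NT cells in vehicle by log2 1.17 ± 0.16, and by 0.29 ± 0.19 under MPA. The MPA difference was -0.94 ± 0.19 in NT, -1.28 ± 0.17 in U1U2 and -1.82 ± 0.17 in promoter cells. GRPR shares its locus with AC078993.1, annotated as antisense, which held 8 to 81 counts in vehicle and 4 to 19 counts in MPA libraries. AC078993.1 was also highest in promoter vehicle, at 1.81 to 2.54 CPM, and the kit was stranded but the strand setting of the counting is not given in the sources used here, so their reads cannot be told apart with certainty.

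ADGRF4 (chr6:47685864-47722021, plus strand), an adhesion receptor without an agreed ligand, separated the control line from both activated lines. It measured 7.45, 8.0 and 7.53 CPM in NT vehicle and 5.24, 4.77 and 6.12 CPM in NT MPA. In vehicle it measured 1.84, 2.50 and 2.21 CPM in U1U2 and 3.11, 2.95 and 3.20 CPM in promoter cells. Under MPA it measured 1.12, 1.22 and 1.98 CPM in U1U2 and 1.54, 1.64 and 2.17 CPM in promoter cells. Every NT library stood above every library of the activated lines. ADGRF4 was lower than in NT vehicle by log2 -1.80 ± 0.19 in U1U2 and -1.31 ± 0.19 in promoter cells. Under MPA these differences were -1.86 ± 0.20 and -1.59 ± 0.20.

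PTH1R (chr3:46877746-46903799, plus strand), the Gs-coupled receptor of parathyroid hormone and its related peptide, was lowest in promoter cells. It measured 6.61, 4.10 and 3.28 CPM in NT vehicle, 2.67, 2.90 and 2.75 CPM in U1U2 vehicle and 1.35, 1.26 and 1.64 CPM in promoter vehicle. Under MPA it measured 4.46, 5.28 and 3.37 CPM in NT, 2.62, 3.85 and 5.56 CPM in U1U2 and 2.6, 1.56 and 1.85 CPM in promoter cells. The 3 vehicle groups did not overlap, while vehicle and MPA overlapped in each line. Promoter cells were lower than NT cells by log2 -1.67 ± 0.30 in vehicle and -1.14 ± 0.28 under MPA. The highest NT vehicle value came from the shallowest library, and over all alternatives the vehicle difference ran from -1.87 to -1.36. MYL3, which overlaps PTH1R on the opposite strand, was also lowest in promoter cells. In vehicle it held 1.90 to 2.03 CPM in NT, 1.43 to 2.11 CPM in U1U2 and 0.69 to 1.11 CPM in promoter libraries, close to the level of PTH1R in promoter cells. Since the strand setting of the counting is not given, reads of PTH1R and MYL3 cannot be told apart with certainty.

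**Figure D2:**
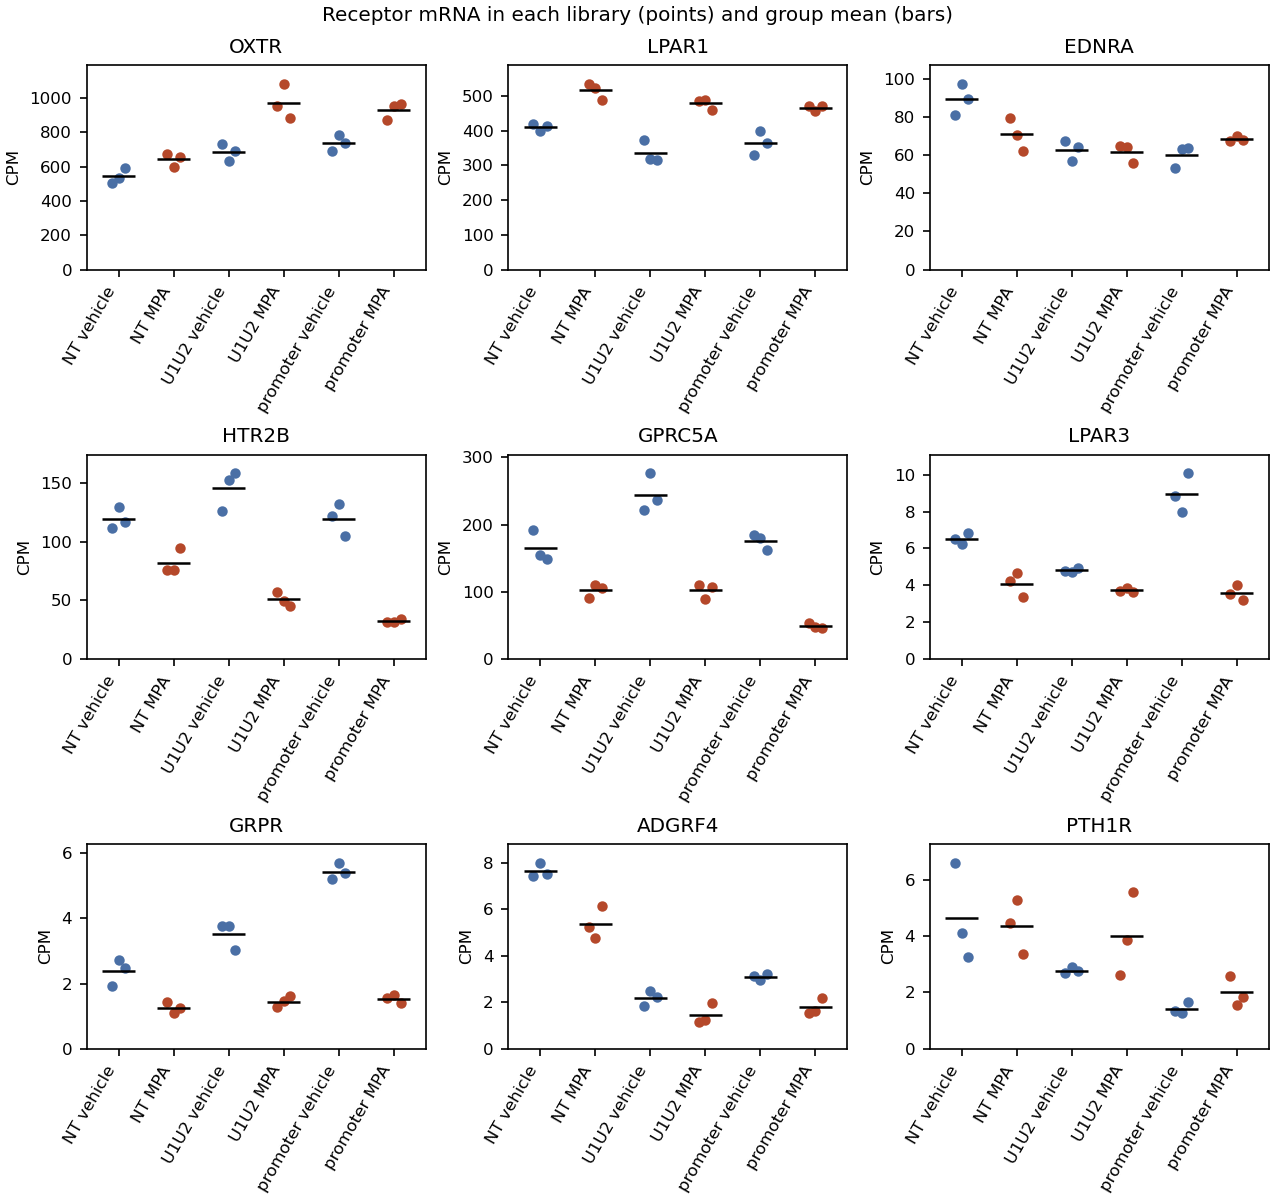
CPM of each receptor in the 18 libraries (points, blue for vehicle and red for MPA) with group means (bars), every axis starting at 0. OXTR and LPAR1 sit higher under MPA in each line, HTR2B, GPRC5A, LPAR3 and GRPR sit lower, and ADGRF4 is highest in NT cells.

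Counts of members past the threshold under MPA are given beside the share of all genes. By edgeR's quasi-likelihood test with Benjamini-Hochberg adjusted p under 0.05 over all tested genes, 5 of 9 members passed in NT cells (1 higher, 4 lower) where 5.93% of all genes did. In U1U2 cells 5 passed (2 higher, 3 lower) against 11.7% of all genes, and in promoter cells 7 (2 higher, 5 lower) against 15%. LPAR1 was higher, and HTR2B, GRPR and GPRC5A were lower, in all 3 lines. LPAR1 in NT cells no longer passed without NT vehicle replicate 2 or 3 or NT MPA replicate 1 or 2, or with only the groups compared fitted, at 0.28 to 0.35 over all alternatives. GRPR in NT cells did not pass with only the groups compared fitted (-1.08 to -0.83 over all alternatives), nor did LPAR3 there or with no filter on low counts (-0.76 to -0.56). In promoter cells OXTR was lost without vehicle replicate 1 or 3 or MPA replicate 2 or 3 (0.29 to 0.38), and ADGRF4 without MPA replicate 1 or 2 (-0.97 to -0.71). The median member difference was -0.52 in NT, -0.37 in U1U2 and -0.80 in promoter cells, where all tested genes had medians of 0.02, 0.03 and -0.0034. Since the members were chosen on such contrasts, nothing is read from these shares.

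**Figure D3:**
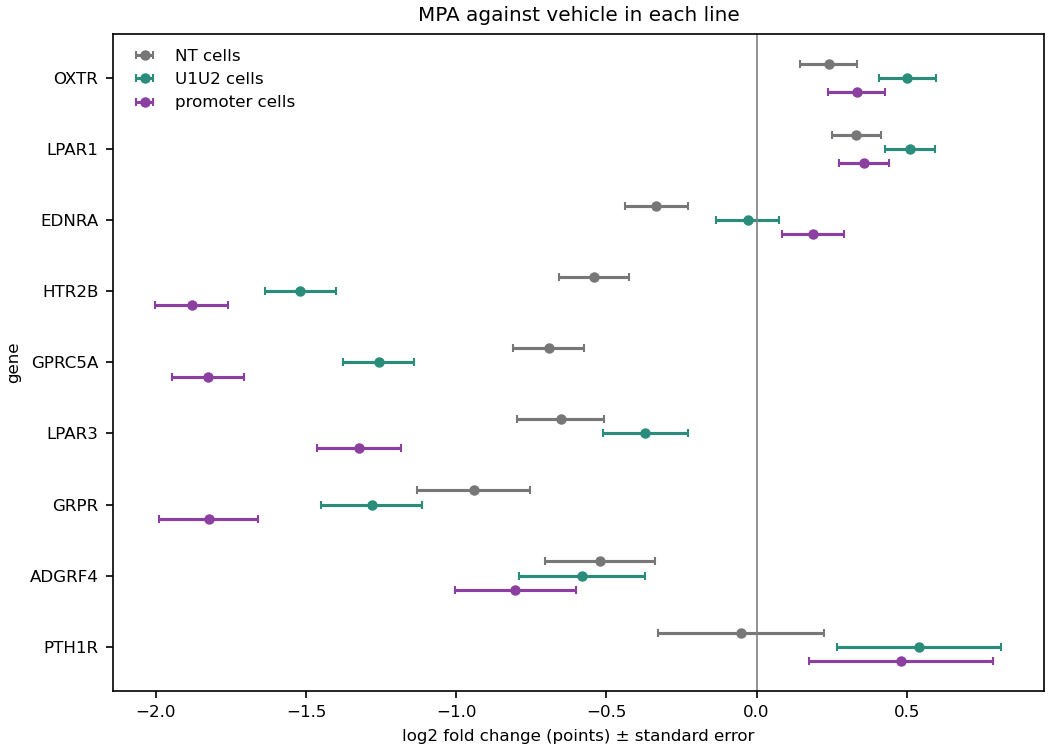
Log2 fold change of MPA against vehicle (points) with standard errors (bars) for the 9 receptors in NT, U1U2 and promoter cells. HTR2B runs from -0.54 in NT to -1.88 in promoter cells and GPRC5A from -0.69 to -1.83, while the 3 lines lie close together for LPAR1.

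Beside the line differences in vehicle stands the higher mitochondrial share of NT vehicle libraries, and its part in them was not tested. U1U2 against NT cells in vehicle had 3 members past the threshold (1 higher, 2 lower) beside 1.14% of all genes, and promoter against NT cells in vehicle had 5 (2 higher, 3 lower) beside 6.75%. LPAR3 alone passed for promoter against U1U2 cells in vehicle, beside 0.784% of all genes. Under MPA, 3 members passed for U1U2 against NT (1.72% of all genes), 5 for promoter against NT (4.15%) and 2, HTR2B and GPRC5A, for promoter against U1U2 (0.328%). Differences of the MPA response passed for HTR2B alone in U1U2 minus NT (0.219% of all genes) and for HTR2B and GPRC5A in promoter minus NT (1.56%). For promoter minus U1U2 no member passed in edgeR beside 0.0129% of all genes, with 4 at an unadjusted p under 0.05 and 1 passing in DESeq2. Several of these comparisons share the same NT or vehicle libraries. OXTR for promoter against NT in vehicle was lost without promoter vehicle replicate 2 (0.39 to 0.51 over all alternatives). It was also lost with only the groups compared fitted. PTH1R for the same under MPA was lost without NT MPA replicate 1 or 2 or promoter MPA replicate 2 or 3 (-1.38 to -0.98). PTH1R was also lost there with the replicate number as a block. Without NT or U1U2 vehicle replicate 2 or 3, the count of 3 for U1U2 against NT in vehicle fell to 1. GPRC5A and EDNRA were lost in those runs, with the replicate block and with only the groups compared fitted, and ADGRF4 stayed. The count of 2 under MPA fell to 1 without U1U2 MPA replicate 1 or 2 or any promoter MPA replicate, and the U1U2 minus NT response fell to 0 without NT vehicle replicate 3, NT MPA replicate 3, U1U2 vehicle replicate 2 or 3 or U1U2 MPA replicate 2.

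**Figure D4:**
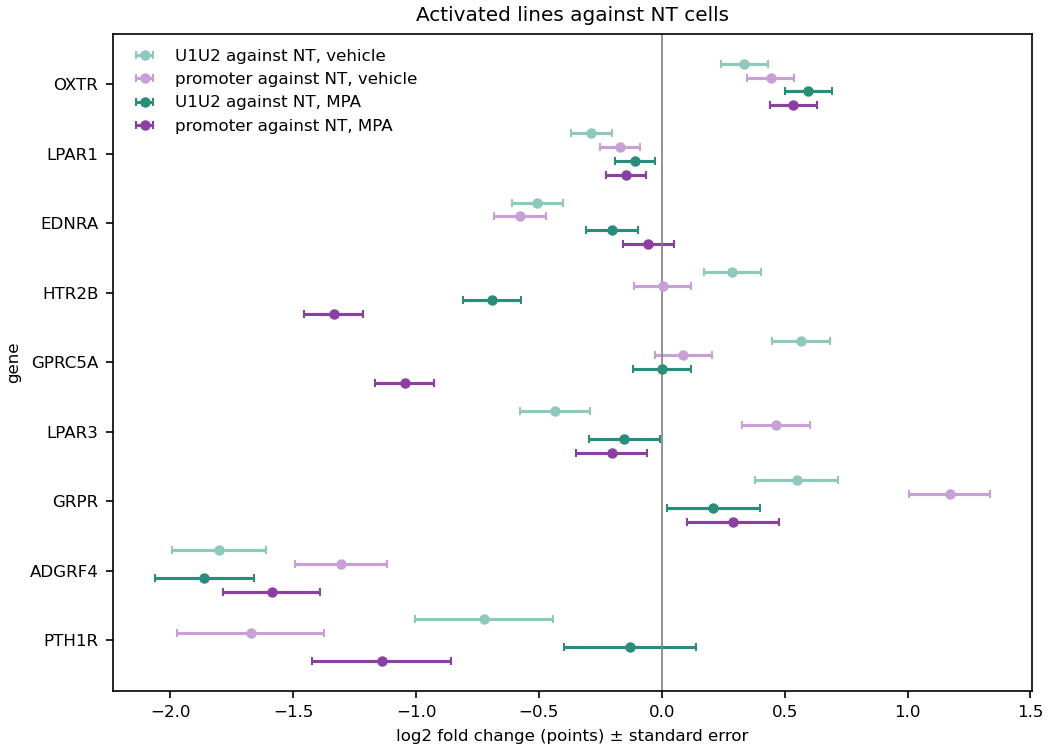
Log2 fold change (points) with standard errors (bars) of U1U2 and promoter cells against NT cells, in vehicle (pale) and in MPA (dark). ADGRF4 lies left of 0 in all 4 comparisons, whereas GRPR is right of 0 mainly in vehicle and HTR2B is left of 0 in MPA.

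RefSeq promoter windows (GRCh38.p14, 300 bases around a transcript start, most of them before it) were matched for 7 members, not for HTR2B or GPRC5A. The windows of GRPR and LPAR3, receptors that were lower under MPA together, are shown beside the OXTR window that holds a steroid receptor half-site, in capitals, for a receptor that was higher. They lie at chrX:16123315-16123614 (plus strand), chr1:84893157-84893456 (minus) and chr3:8769564-8769863 (minus).
GRPR: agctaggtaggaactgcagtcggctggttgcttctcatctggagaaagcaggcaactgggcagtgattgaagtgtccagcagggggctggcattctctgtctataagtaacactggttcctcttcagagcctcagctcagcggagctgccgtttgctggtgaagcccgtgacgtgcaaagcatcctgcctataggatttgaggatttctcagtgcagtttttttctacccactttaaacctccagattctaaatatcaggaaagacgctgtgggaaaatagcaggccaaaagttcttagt
LPAR3: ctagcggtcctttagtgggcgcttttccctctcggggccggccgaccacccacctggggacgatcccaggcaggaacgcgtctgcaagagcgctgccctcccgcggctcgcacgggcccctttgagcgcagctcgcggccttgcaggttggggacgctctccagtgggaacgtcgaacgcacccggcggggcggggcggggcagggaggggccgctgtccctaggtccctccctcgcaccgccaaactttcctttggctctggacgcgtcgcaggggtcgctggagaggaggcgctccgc
OXTR: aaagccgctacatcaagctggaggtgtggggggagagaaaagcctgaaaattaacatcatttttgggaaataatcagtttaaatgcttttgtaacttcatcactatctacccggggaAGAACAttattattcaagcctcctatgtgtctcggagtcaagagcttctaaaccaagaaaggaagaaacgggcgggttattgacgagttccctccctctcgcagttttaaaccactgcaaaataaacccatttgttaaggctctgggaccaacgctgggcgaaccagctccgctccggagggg
Searched on both strands were the half-site TGTTCT and the palindromic element, GNACA and TGTNC set 3 bases apart, which 14.8% and 0.389% of 34943 promoter windows held. A window that holds the palindromic element can also hold the half-site. Some members had several windows. The half-site occurred once over all member windows, at position -133 from the OXTR start. The other OXTR windows and all windows of LPAR1, also higher under MPA, held none. The palindromic element was in no member window, which says only that these letters are not in these windows. No link between the half-site and the mRNA level was tested. The LPAR3 window had 71.3% G and C and 33 CpG, the GRPR window 49.0% and 6, against medians of 58.7% and 14 over all windows.

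Across the 18 libraries, HTR2B and GPRC5A varied most alike among the members (Pearson r 0.94 of log2 CPM), then GRPR and LPAR3 (0.81). ADGRF4 and OXTR varied in opposite directions (-0.88), as did GRPR and LPAR1 (-0.85). Among 11032 genes compared, the most like HTR2B was KIT (0.98), the most like GPRC5A was the adrenergic receptor gene ADRA2A (0.97) and the most like LPAR1 was LDLRAD3 (0.97). TMEM97 was most like GRPR (0.96), JCAD most like OXTR (0.95), RIN2 most like LPAR3 and FKBP7 most like EDNRA (0.93 each), CCDC69 most like ADGRF4 (0.90) and VEGFC most like PTH1R (0.88). These libraries share lines, treatment and depth, so the values are a description only.

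Other receptors, ligand genes and signal carriers were tested with the same model, from lists that were also drawn up with earlier results of these data known. Of 6 tested nearest relatives, HTR1D and GPRC5B fell and LPAR6 rose under MPA in all 3 lines, 50% of the list beside 5.93, 11.7 and 15% of all tested genes in NT, U1U2 and promoter cells. HTR1D, a Gi-coupled serotonin receptor, fell from 3.25 ± 0.08 (SD, n = 3) to 0.913 ± 0.250 CPM in NT cells (log2 -1.78 ± 0.23, edgeR adjusted p = 4.58e-05) and from 6.02 ± 0.68 to 0.894 ± 0.025 CPM in promoter cells (-2.74 ± 0.21, edgeR adjusted p = 3.33e-08). GPRC5B, of the same class as GPRC5A, fell by log2 -0.82 ± 0.15 in NT, -0.72 ± 0.15 in U1U2 and -0.96 ± 0.15 in promoter cells. LPAR6, another lysophosphatidic acid receptor, rose by 0.57 ± 0.15, 1.00 ± 0.15 and 0.81 ± 0.15 in the same order, the direction of LPAR1. HTR1B, HTR7 and LPAR2 did not pass in any of the 3 lines in edgeR, with HTR1B at 0.10 ± 0.10, 0.26 ± 0.09 and 0.03 ± 0.09.

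The 94 tested receptors outside the list include the 6 tested nearest relatives and no prostaglandin receptor. Of these 94, 24 passed under MPA in NT cells (10 higher, 14 lower), 28 in U1U2 (9 and 19) and 36 in promoter cells (11 and 25). These are 25.5, 29.8 and 38.3% of the list, beside 5.93, 11.7 and 15% of all tested genes. Between NT and promoter cells 22 were called in the same direction, 91.7% of the NT calls and 61.1% of the promoter calls, and none in opposite directions. In all 3 lines 19 receptors passed alike, 7 higher and 12 lower. Among receptors whose log2 CPM averaged 0 or more over the libraries, ADRA2C, the alpha-2C adrenergic receptor, had the largest rise in each line. It went from 0.364 ± 0.068 to 5.06 ± 1.53 CPM in promoter cells, while its relative ADRA2A fell from 17.7 ± 1.5 to 5.92 ± 0.90 CPM. CHRM2, a muscarinic receptor, fell in each line, by log2 -1.05 ± 0.08 in NT, -1.36 ± 0.08 in U1U2 and -1.18 ± 0.08 in promoter cells. In vehicle, 13 receptors passed for promoter against NT cells (3 higher, 10 lower), 13.8% of the list beside 6.75% of all genes, and the count was 8 without NT vehicle replicate 2 or 3 and 6 without promoter vehicle replicate 1. For promoter against NT under MPA, 15 passed (2 higher, 13 lower), 16.0% beside 4.15%, and 9 without promoter MPA replicate 3.

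For U1U2 against NT cells 4 of the 94 receptors passed in vehicle (4.26%, beside 1.14% of all genes) and 8 under MPA (8.51%, beside 1.72%). For promoter against U1U2 cells 3 passed under MPA (3.19%, beside 0.328%). The count of 4 was 8 without U1U2 vehicle replicate 1, 2 without NT vehicle replicate 3 and 0 without NT vehicle replicate 2 or U1U2 vehicle replicate 2 or 3. The count of 3 was 0 without U1U2 MPA replicate 1 or any promoter MPA replicate. For promoter against U1U2 cells in vehicle edgeR called 0, with 13 at an unadjusted p under 0.05 and 2 called by DESeq2. The MPA response of promoter minus NT cells passed for 3 (3.19%, beside 1.56% of all genes), and for 0 to 2 when a library was left out. The count was 0 without NT vehicle replicate 2 or promoter MPA replicate 3. It was 1 without NT vehicle replicate 3, NT MPA replicate 3 or promoter vehicle replicate 2. The response of U1U2 minus NT and of promoter minus U1U2 gave 0 in edgeR, each with 9 at an unadjusted p under 0.05, and DESeq2 called 1 and 0.

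**Figure D5:**
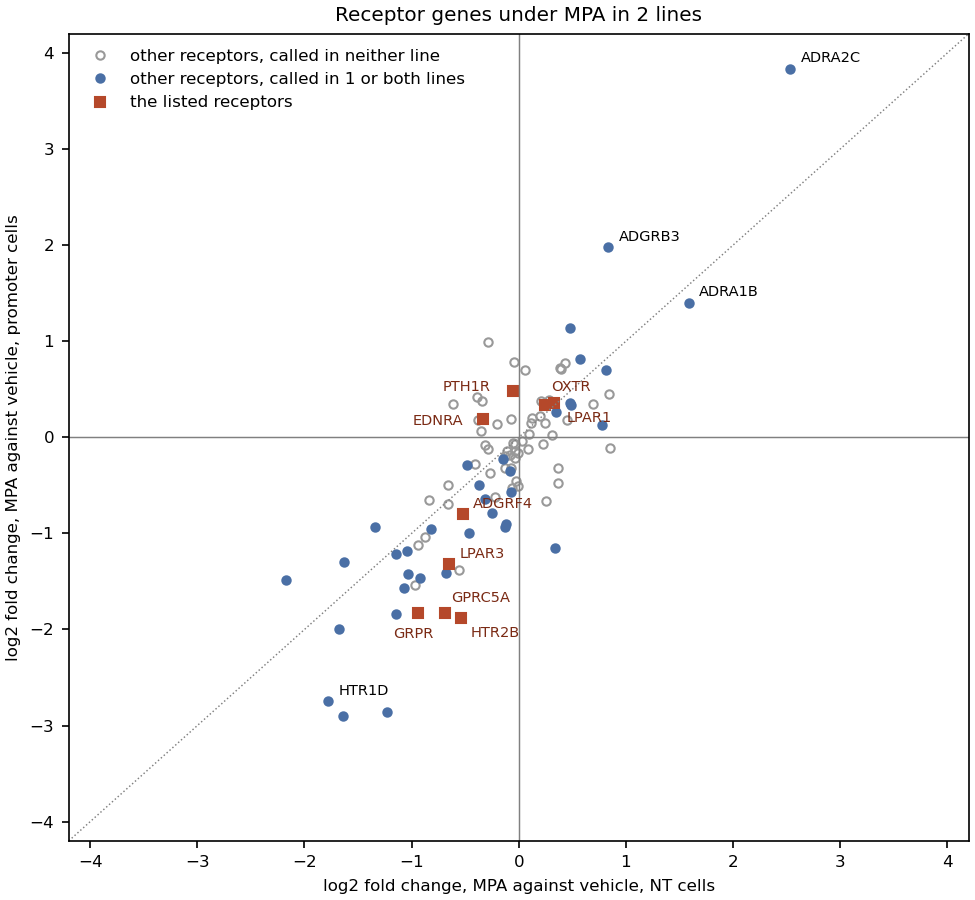
Log2 fold change of MPA against vehicle in promoter cells against that in NT cells for 94 other receptors (circles, filled where called in 1 or both lines) and the 9 listed receptors (squares), with the line of equal change dotted. HTR2B, GPRC5A and GRPR lie below that line, ADRA2C lies at the top right and HTR1D at the lower left.

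Ligand and ligand enzyme genes were mostly scarce, and 13 of 26 were tested. OXT, the gene of oxytocin, had no counts, and GRP, the ligand gene of GRPR, had 1 count over all 18 libraries. PTHLH, the ligand of PTH1R, fell under MPA from 1.29 ± 0.52 to 0.546 ± 0.148 CPM in U1U2 cells (edgeR adjusted p = 0.0233) and from 1.25 ± 0.42 to 0.650 ± 0.090 CPM in promoter cells (edgeR adjusted p = 0.0458). In NT cells PTHLH gave log2 -1.07 ± 0.31 with an edgeR adjusted p of 0.0505. PLPP1 and PLPP3 encode phosphatases that degrade lysophosphatidic acid. PLPP3 rose with MPA from 14.3 ± 1.3 to 27.0 ± 0.5 CPM in promoter cells (0.92 ± 0.12) and PLPP1 from 81.0 ± 5.8 to 116 ± 7 CPM in NT cells (0.52 ± 0.08). ENPP2, whose product makes lysophosphatidic acid, stayed under 1 CPM in every group mean and rose by 1.31 ± 0.36 in U1U2 cells. PLPP2 fell by -0.79 ± 0.25 in promoter cells. LIPI, with 241 counts over all 18 libraries, and MME rose by 1.32 ± 0.41 and 0.56 ± 0.16 in U1U2 cells. EDN1, the endothelin gene, ECE1, LNPEP, AGK, MAOA and NMB did not pass in any line under MPA in edgeR, with EDN1 at -0.75 ± 0.28 in NT cells.

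Of 65 tested genes that carry receptor signals, 6 passed under MPA in NT, 9 in U1U2 and 11 in promoter cells, and 5 in all 3 lines. These are 9.23, 13.8 and 16.9% of the list beside 5.93, 11.7 and 15% of all tested genes, shares near the background, so the values below are those of single genes. PLCB4, a phospholipase C downstream of Gq, rose from 28.8 ± 2.2 to 47.0 ± 2.7 CPM in NT and from 37.3 ± 2.8 to 96.5 ± 4.7 CPM in U1U2 cells. ITPR1, a calcium channel opened by the product of phospholipase C, rose by log2 0.47 ± 0.11 in NT, 0.57 ± 0.10 in U1U2 and 0.96 ± 0.11 in promoter cells. PLCB1, PDE4B and GNB5 fell in all 3 lines, PDE4B, which breaks down cyclic AMP, from 76.7 ± 4.2 to 43.6 ± 2.0 CPM in NT cells. RGS4, which shortens Gq and Gi signals, was higher than in NT vehicle by 0.54 ± 0.10 in U1U2 and 0.68 ± 0.10 in promoter cells.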

How the data were processed

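Each of the 18 libraries held polyadenylated RNA prepared with a stranded kit, per the labels' protocols. Raw gene counts were deposited by the authors. Their log2 CPM values, deposited for 10402 genes, served only to check those counts, with a largest difference of 5e-09. Alignment with STAR 2.6.0c to hg38 and work in R 4.4.1 with edgeR 4.2.2 are per the submitters' processing notes, while counter, strand setting and annotation are not given in the sources used here. Counts totalling 11932474 to 33418643 per library were fitted in R 4.3.3 with edgeR 4.0.16 (TMM factors, filterByExpr with a minimum count of 10, 1 term per group over all 18 libraries, quasi-likelihood F test, Benjamini-Hochberg over 15558 genes, threshold 0.05). The common biological coefficient of variation was 0.129. The fit was tested on simulated data. Gene positions and exon lengths came from GENCODE on GRCh38 and promoters from RefSeq.

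The members and the gene lists (29 nearest relatives, 26 ligands and ligand enzymes, 80 signal carriers, 321 other receptors and cell type markers) were chosen with earlier results of these data known. The other receptors include the nearest relatives. Named were all members, all tested relatives and ligand genes, receptors and signal carriers from among the called ones of largest fold change whose log2 CPM averaged 0 or more and whose groups did not overlap, F2R (chosen for its rank after its values were seen), and the gene of highest correlation to each member. Alternatives were DESeq2 1.42.0, RLE size factors, no filter on low counts, only the groups compared, the replicate number as a block, and leaving out each library. They covered the members and the counts of other receptors called, not the ligand genes or signal carriers. Replicates differed by more than counting noise. The labels give all libraries 1 batch.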

Additional observations from a re-analysis of the deposited data

Results flagged for a closer look

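The MPA response differed between lines in 3 values of 2 members and 7 values of other genes, each from the test of the difference itself in edgeR over all genes, as log2 differences. For HTR2B the U1U2 response minus the NT response was -0.98 and the promoter response minus the NT response was -1.34. For GPRC5A the promoter response minus the NT response was -1.13. These members were chosen on measured values, so their differences are a description. Among other receptors, promoter minus NT was 1.15 for ADGRB3, -0.79 for SSTR1 and -0.54 for HRH1. These 3 are 3.19% of the tested other receptors, beside 1.56% of all genes. Among signal carriers, PDE4D gave 0.79 for U1U2 minus NT and 0.85 for promoter minus NT, PLCB4 gave 0.67 for U1U2 minus NT and PLCE1 gave 0.47 for promoter minus NT. The 2 in each difference are 3.08% of the 65 tested, beside 0.219% of all genes for U1U2 minus NT and 1.56% for promoter minus NT. PDE4D was 48.2 ± 6.1 CPM in NT vehicle and 38.9 ± 3.1 CPM in NT MPA, while promoter cells went from 40.1 ± 4.7 to 58.3 ± 0.9 CPM (SD, n = 3).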

How the results depend on the processing

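No member's fold change past the threshold changed sign under any alternative run. With no filter on low counts, other receptors called were 8 for U1U2 against NT in vehicle and 1 for promoter against U1U2 in vehicle, and members called were 3 for the latter and 2 for the U1U2 minus NT response. With DESeq2, members and other receptors called were 5 and 8 for U1U2 against NT in vehicle and 3 and 2 for promoter against U1U2 in vehicle, 1 other receptor passed for U1U2 minus NT and 1 member for promoter minus U1U2. With only the groups compared fitted, members called were 2 for MPA in NT, 1 for U1U2 against NT in vehicle, 0 for promoter against U1U2 in vehicle, 1 for U1U2 against NT under MPA, 1 for promoter against U1U2 under MPA and 0 for U1U2 minus NT, and other receptors were 0, 3 and 0 for U1U2 against NT in vehicle, the same under MPA and promoter against U1U2 under MPA. The replicate numbers did not pair the libraries, since 4 of 18 libraries correlated best with one of their own number and same-numbered pairs had a median r of -0.05. With the replicate block, members called were 1 for U1U2 against NT in vehicle, 1 for promoter against U1U2 under MPA and 0 for U1U2 minus NT, and other receptors were 1 for each of the first 2.

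Leaving out each library in turn gave ranges of 1 to 4 members and 0 to 8 other receptors for U1U2 against NT in vehicle, 1 to 2 members and 0 to 2 other receptors for promoter against U1U2 under MPA, and 0 to 1 members for U1U2 minus NT. Other receptors ranged from 6 to 16 for promoter against NT in vehicle, from 9 to 13 for the same under MPA and from 0 to 2 for promoter minus NT. Leaving 1 library out also leaves fewer libraries, and the cause of these changes was not tested. The scarce members GRPR, PTH1R, LPAR3 and ADGRF4 rest on counts as low as 18 in a library.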
